A study of Mus musculus with 9 samples.

Results

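The cell cycle and DNA replication genes described here are 38 mouse genes chosen by symbol. They comprise the D-type cyclins with Cdk4, the E-type cyclins with E2f1, a pair of CDK inhibitors, the 6 subunits of the MCM replicative helicase, 4 genes for the replication clamp and for nucleotide supply, Cdk1 with the A- and B-type cyclins, 13 genes of the spindle, its checkpoint and cytokinesis, and Mki67 with Top2a. All 38 were found among the 54532 gene identifiers of the count table, and all 38 were among the 12012 genes that passed the filter on low counts. The cells were bone marrow neutrophils of wild type C57/B6 mice. In the first group, called alone, they were cultured for 12 h in 0.5% fetal bovine serum (FBS). In the other 2 groups they shared DMEM with 0.5% FBS for 12 h with PyMT-M cells or with PyMT-N cells, and the neutrophils were then recovered by fluorescence-activated sorting. PyMT, the polyoma middle T antigen, drives a mouse model of mammary carcinoma, and the labels do not say what M and N stand for. Each group had 3 libraries, labelled as biological replicates without a link to animals, so that p-values measure the spread between these libraries. The library names repeat the same numbers across the 3 groups. The labels do not say whether these mark a shared source, and the main fit did not pair them. The labels do not say that the neutrophils kept alone were sorted, so sorting and co-culture cannot be told apart in the comparisons with them.

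A cell enters the cycle when D-type cyclins and their kinase partners release E2F factors from the retinoblastoma proteins, which switches on the genes for DNA synthesis. The MCM helicase is loaded at origins in G1, replication runs through S phase, and Cdk1 with cyclins A and B then drives mitosis, where the spindle checkpoint holds chromosome separation until every kinetochore is attached. In the neutrophil lineage these genes belong to the dividing precursors of the marrow, since the later stages of maturation leave the cycle and mature neutrophils do not divide. CDK inhibitors such as p21, the product of Cdkn1a, and p27, the product of Cdkn1b, hold cells out of the cycle.

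Library totals ran from 1641049 to 4524563 counts. Levels are given as normalised CPM, which divides counts by library totals scaled with trimmed means of M values (TMM), and per-library values are listed in the order of replicates 1, 2 and 3. Alone replicate 3 stood apart: it had the fewest counts, the fewest genes with a count (11814, against 15094 to 17008 in the other libraries) and the most mitochondrial mRNA (1.75% of its counts, against 0.180% to 0.769%). Mature neutrophil markers summed to 30794 to 44673 normalised CPM alone against 14254 to 17819 with PyMT-M and 16566 to 20942 with PyMT-N. Of all tested genes, 29.4% were called higher and 23.6% lower with PyMT-N than alone, and 28.2% and 27.9% with PyMT-M. Of the 18 epithelial markers tested, 17 were called higher and 0 lower with PyMT-N than alone, and 3 and 1 with PyMT-M. Their sums were 47.5 to 114 alone against 104 to 166 with PyMT-M and 2477 to 3256 with PyMT-N. At 0 alone were Cldn4, Ehf, Epcam, Esrp1, Krt14, Krt19, Krt5 and Rab25. Cldn3, Cldn4, Ehf, Esrp1, Krt14 and Krt5 were at 0 with PyMT-M, and Krt5 was the epithelial marker at 0 with PyMT-N. Other epithelial markers were present with PyMT-M, where Krt8 had 595 counts over the group against 1 alone, and Wfdc2 412 against 2. Mesenchymal markers summed to 12.7 to 97.3 alone against 1285 to 1360 with PyMT-M and 1532 to 1892 with PyMT-N. Of the 15 tested, 12 were called higher and 1 lower with PyMT-M than alone, and 11 and 1 with PyMT-N. Cdh2, Loxl1 and Thy1 were at 0 with PyMT-M, and Col1a2, Col3a1, Col6a1, Fbn1 and Tagln at 0 with PyMT-N. At 0 alone were Bgn, Cdh2, Col1a2, Loxl1, Prrx1, Timp1 and Twist1. All 16 neutrophil precursor markers were called lower with PyMT-N and 12 with PyMT-M. Their sums were 4690 to 6606 alone against 2565 to 4548 with PyMT-M and 681 to 948 with PyMT-N, where Elane, Mpo and Ctsg were at 0. Stem and progenitor markers summed to 181 to 283 alone against 29.2 to 35.4 with PyMT-M and 29.9 to 40.8 with PyMT-N, and B lineage markers to 574 to 1359, 79.6 to 128 and 17.4 to 22.3, with the 1359 in alone replicate 3. Monocyte and macrophage markers summed to 1308 to 1846, 504 to 749 and 711 to 907 in the same order, and erythroid markers to 4.53 to 5.79, 0.430 to 3.73 and 1.72 to 3.58. The part of any of these cells in the levels of the cell cycle genes was not tested. In bulk RNA, a change in the number of cells of a type and a change in RNA per cell cannot be told apart.

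The 38 genes summed to 1105 ± 73.9 normalised CPM alone (SD, n = 3) against 3936 ± 223 with PyMT-M and 2756 ± 161 with PyMT-N. The lowest and highest libraries were 1045 and 1188 alone, 3787 and 4192 with PyMT-M, and 2579 and 2893 with PyMT-N, so that the 3 groups did not overlap. As a share of all counts this was 0.0913% ± 0.00453 alone against 0.462% ± 0.0185 with PyMT-M and 0.280% ± 0.0240 with PyMT-N. By role, the helicase genes summed to 179.7 ± 8.36 alone against 868 ± 89.4 with PyMT-M and 393 ± 54.7 with PyMT-N. The 13 spindle, checkpoint and cytokinesis genes summed to 164 ± 40.5, 957 ± 68.5 and 612 ± 58.2 in the same order, and Cdk1 with cyclins A and B to 53.7 ± 16.6, 448 ± 41.8 and 345 ± 35.4. The sum of the CDK inhibitors went in another order, at 67.3 ± 26.4 alone against 87.6 ± 4.12 with PyMT-M and 229.7 ± 1.17 with PyMT-N. Cdkn1a had this order, while Cdkn1b, given below, did not and was not called in any comparison.

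**Figure D1:**
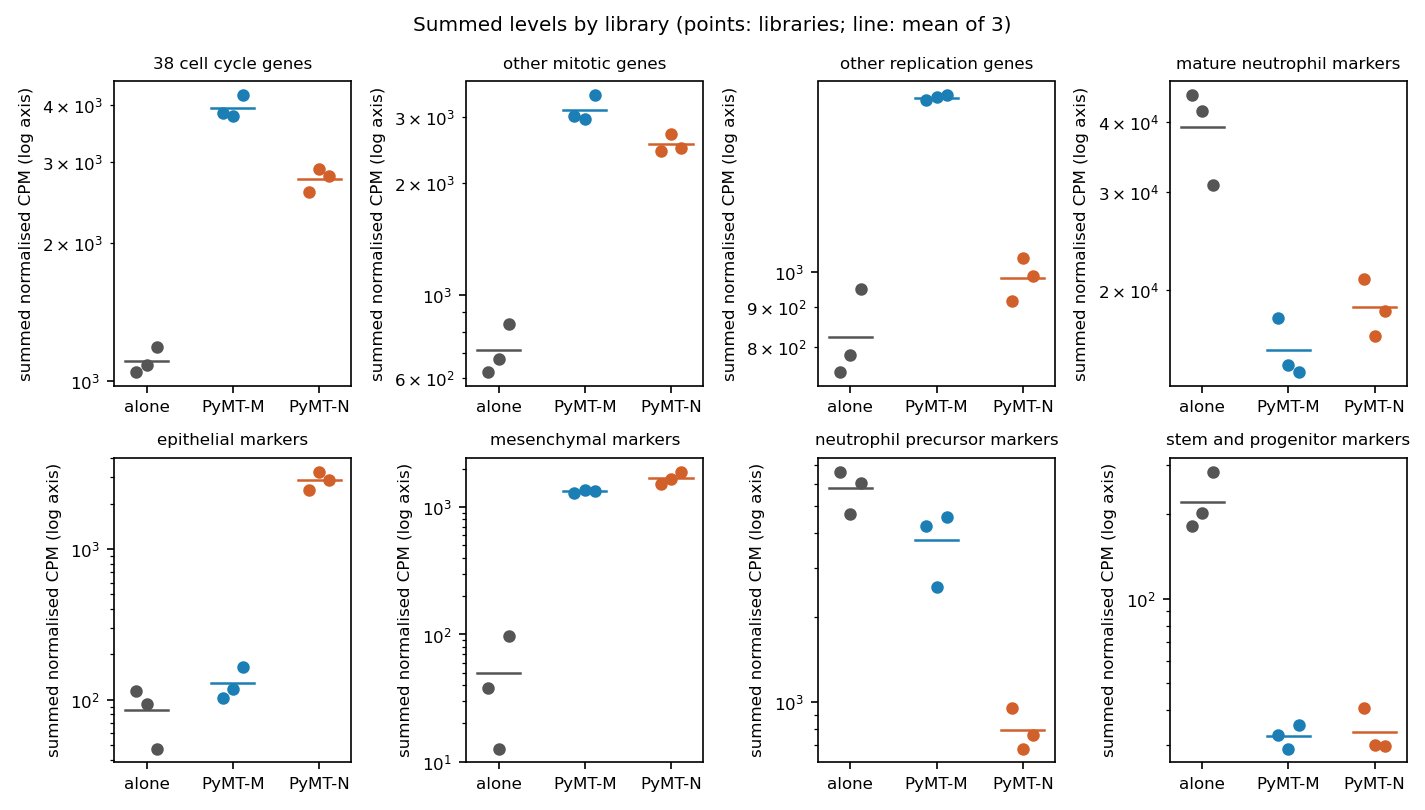
Summed normalised CPM (log axes, scaled separately) of the 38 genes, of 2 lists of related genes and of 5 marker lists in each library of the 3 groups; points are libraries and the line is the mean of 3. The 38 genes sit between 1045 and 1188 alone, between 3787 and 4192 with PyMT-M and between 2579 and 2893 with PyMT-N, while mature neutrophil markers are highest alone and epithelial markers are highest with PyMT-N.

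With PyMT-N, 31 of the 38 genes were called higher than alone and 1 lower by the quasi-likelihood test of edgeR at an adjusted p under 0.05, where 29.4% of all tested genes were called higher and 23.6% lower. The median log2 fold change was 1.71 over the 38 genes and 0.12 over all tested genes. With PyMT-M, 33 were called higher than alone and 1 lower, against 28.2% and 27.9% of all tested genes, and the median was 2.48 against -0.03 over all tested genes. The lower gene was Ccnd3 in each, and its difference with PyMT-M turned to 0.59 under scaling to pan-leukocyte genes. Both comparisons share the alone libraries. Between the co-cultures, 2 of the 38 were called higher with PyMT-N than with PyMT-M and 16 lower, against 19.1% and 15.5% of all tested genes, with a median of -0.54 against -0.02. The count of 16 fell to 10 without PyMT-N replicate 3 and was 11 without PyMT-N replicate 1. In these refits 10.5% and 11.1% of all tested genes were called lower. Scaling mattered for the direction of the whole transcriptome: with library totals the median of all tested genes moved by 0.29, 0.50 and -0.21 log2 units in the 3 comparisons, and with pan-leukocyte genes as the reference by 1.02, 1.46 and -0.43. Under the latter, 34 of the 38 were called higher and 0 lower with PyMT-N than alone, 38 and 0 with PyMT-M, and 1 higher and 26 lower between the co-cultures. Over all tested genes that scaling called 6709 higher and 937 lower, 7559 and 303, and 1434 and 3501 in the same order, where TMM gave 3533 and 2831, 3382 and 3353, and 2297 and 1865. With library totals the counts were 4315 and 2112, 4571 and 1913, and 1834 and 2703.

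**Figure D2:**
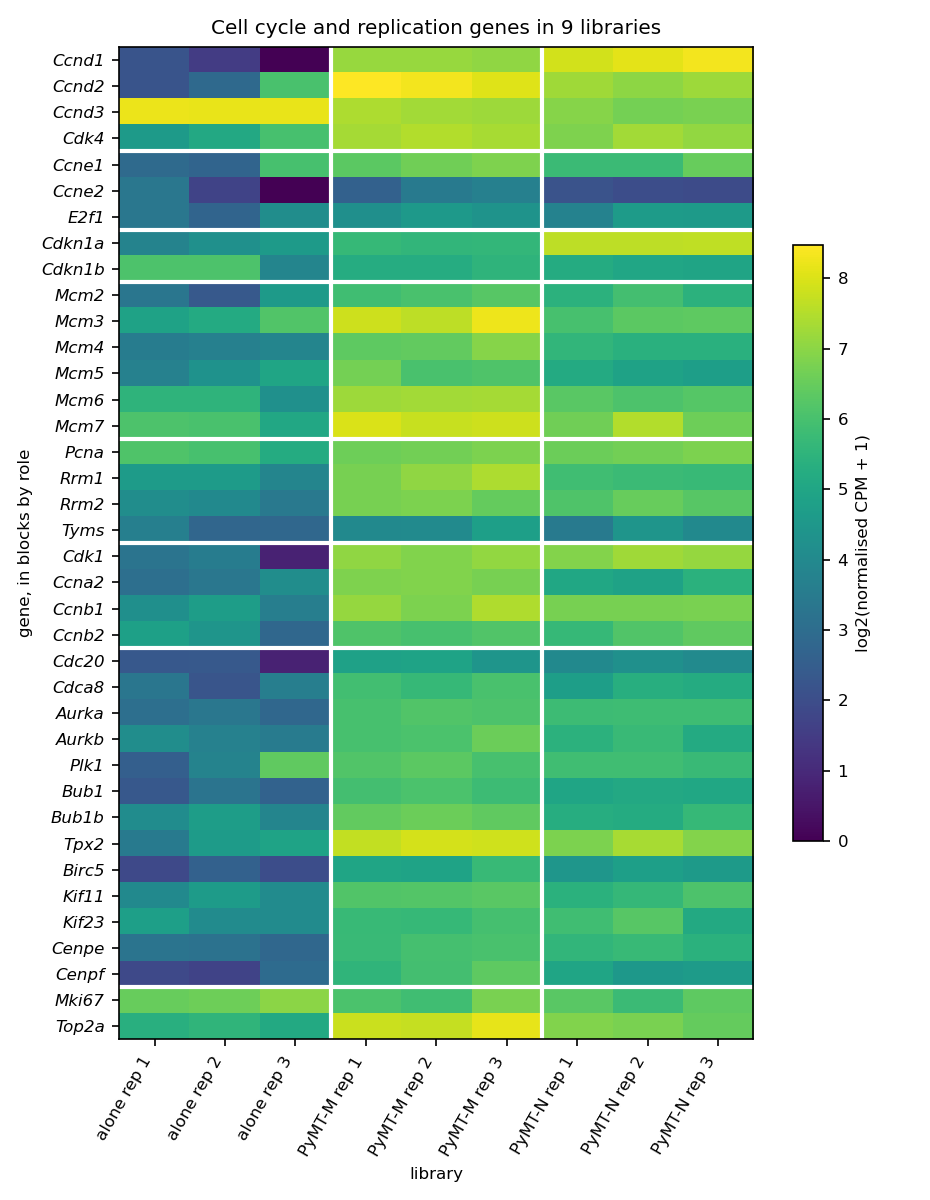
Heat map of the 38 genes (rows, in blocks by role) in the 9 libraries (columns), coloured by log2(normalised CPM + 1). Most rows are darkest in the alone columns and brightest with PyMT-M, Ccnd3 is brightest alone, Ccnd1 and Cdkn1a are brightest with PyMT-N, and alone replicate 3 is brighter than the other alone libraries for Ccnd2, Ccne1 and Plk1.

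**Figure D3:**
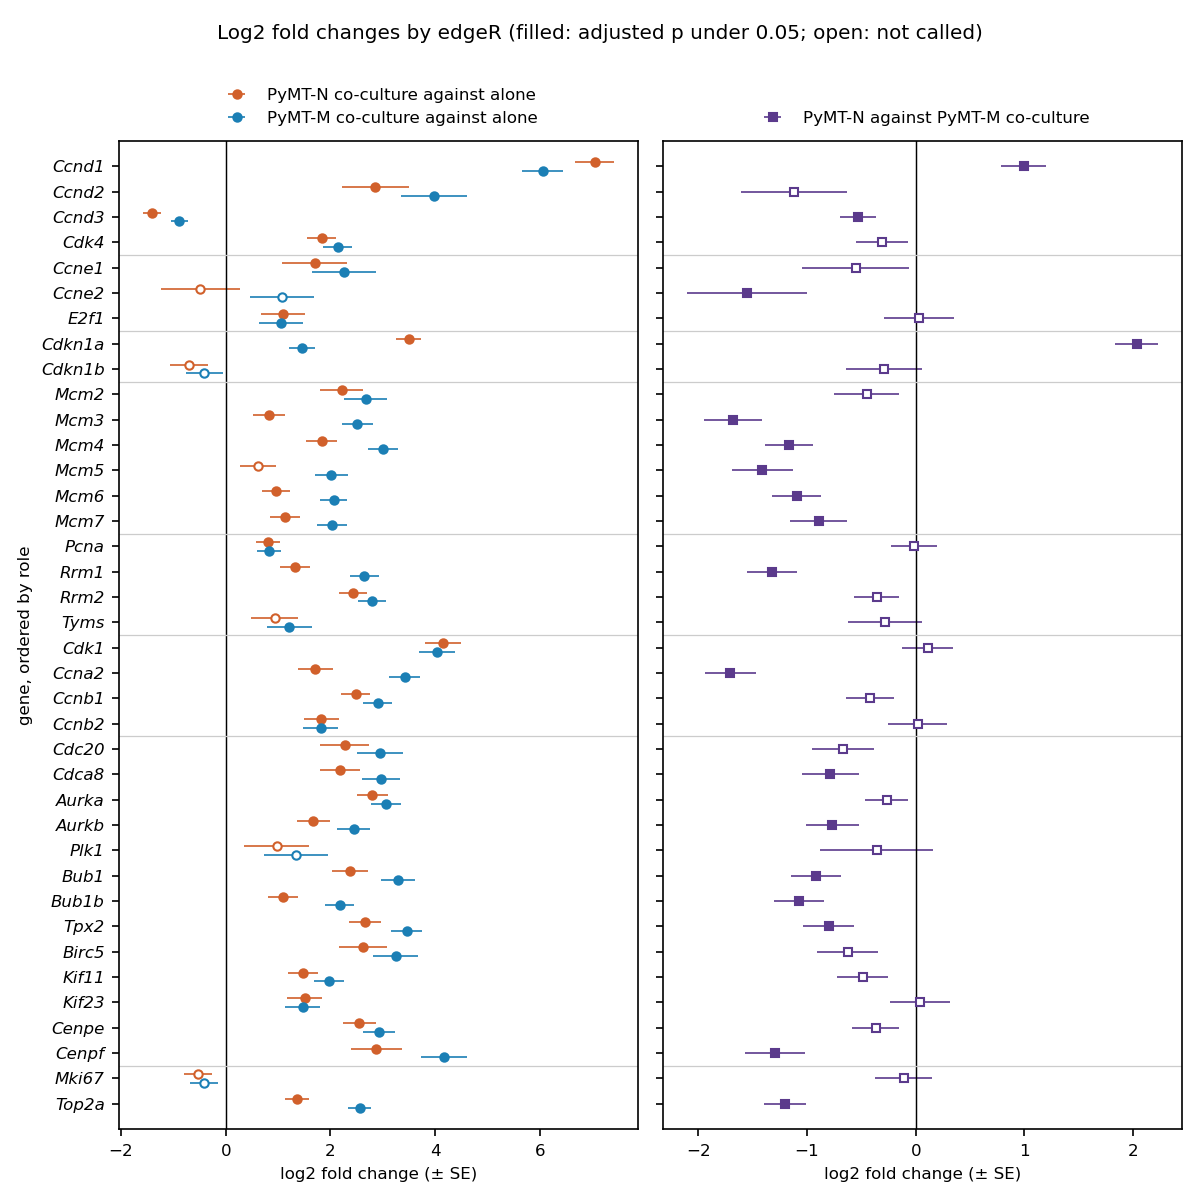
Log2 fold changes with their SE for the 38 genes, each co-culture against alone on the left and PyMT-N against PyMT-M co-culture on the right; filled symbols have an edgeR adjusted p under 0.05. Of the 38, 31 are filled and right of 0 with PyMT-N and 33 with PyMT-M, Ccnd3 is filled and left of 0 in each (with PyMT-M it lies right of 0 under pan-leukocyte scaling), and 16 are filled and left of 0 on the right.

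The D-type cyclins bind CDK4 or CDK6 and start the phosphorylation of the retinoblastoma proteins, and the 3 genes for them moved differently. Ccnd1 (ENSMUSG00000070348, GRCm38 chr7:144929931-144939925), the D-type cyclin most tied to adhesion and growth factor signals in epithelial and mesenchymal cells, was at 3.56, 1.87 and 0 normalised CPM alone, 143, 143 and 134 with PyMT-M and 233, 279 and 321 with PyMT-N. It was near 0 in every alone library and highest in all 3 PyMT-N libraries, with no overlap between groups. Its log2 fold change was 7.04 ± 0.38 (SE) with PyMT-N and 6.05 ± 0.39 with PyMT-M (edgeR adjusted p = 8.94e-10 and 1.75e-08), and 0.99 ± 0.21 between the co-cultures (adjusted p = 0.00144). The fold against alone rests on few counts there, and without alone replicate 1 the differences were 7.77 and 6.78. Under pan-leukocyte scaling the difference between the co-cultures was 0.56 and no longer called (adjusted p = 0.0601). Mesenchymal marker sums, given above, were high in both co-cultures and epithelial marker sums with PyMT-N, and their part in the level of Ccnd1 was not tested.

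Ccnd2 (ENSMUSG00000000184), a D-type cyclin of haematopoietic and other cells, was at 3.56, 6.35 and 64.1 normalised CPM alone, 353, 318 and 265 with PyMT-M and 153, 130.0 and 147 with PyMT-N. The PyMT-M libraries were the highest, and alone replicate 3 was at least 10 times the other alone libraries. Its log2 fold change was 2.86 ± 0.64 with PyMT-N and 3.98 ± 0.63 with PyMT-M (edgeR adjusted p = 0.00327 and 0.000358). Without alone replicate 3 these were 4.82 and 5.94. Between the co-cultures the groups did not overlap, yet the difference of -1.12 ± 0.49 was not called (adjusted p = 0.104). It was called on leaving out alone replicate 1, 2 or 3 (adjusted p = 0.0308, 0.0456 and 3.41e-06).

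Ccnd3 (ENSMUSG00000034165, GRCm38 chr17:47505051-47599691), the D-type cyclin with the highest level in the alone neutrophils, was at 297, 292 and 288 normalised CPM alone, 171, 156 and 148 with PyMT-M and 120.3, 102 and 108 with PyMT-N. The alone libraries were the highest and the closest to each other, and no groups overlapped. Its log2 fold change was -1.41 ± 0.17 with PyMT-N and -0.89 ± 0.17 with PyMT-M (edgeR adjusted p = 5.95e-06 and 0.00037). Under pan-leukocyte scaling it was -0.38 with PyMT-N (adjusted p = 0.112) and 0.59 with PyMT-M (adjusted p = 0.0152), so that its direction with PyMT-M depends on the scaling. With library totals it was -1.12 and -0.38, the latter not called (adjusted p = 0.0671). Between the co-cultures Ccnd3 was lower with PyMT-N by a log2 difference of -0.53 ± 0.17 (adjusted p = 0.0222). That call was lost without PyMT-M replicate 1 or 2 and without PyMT-N replicate 2 or 3 (adjusted p = 0.0897, 0.0563, 0.0839 and 0.0848). Pan-leukocyte genes summed to 28212 to 31272 normalised CPM alone against 9307 to 12667 with PyMT-M and 13649 to 16422 with PyMT-N, and their part in the level of Ccnd3 was not tested.

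Cdk4, the kinase partner of these cyclins, was at 23.6, 33.3 and 63.4 normalised CPM alone, 159, 178 and 165 with PyMT-M and 113, 156 and 135 with PyMT-N. It rose by 1.83 ± 0.28 log2 units with PyMT-N and 2.14 ± 0.28 with PyMT-M (edgeR adjusted p = 7.10e-05 and 1.88e-05). The co-cultures differed by -0.31 ± 0.24, which was not called (adjusted p = 0.349). Per kb of exon, which allows levels to be compared between genes, Ccnd3 was the highest of the 38 genes alone at 33.3 normalised CPM per kb, ahead of Pcna at 23.5. With PyMT-N Ccnd1 led at 59.0 and Cdkn1a followed at 55.6, and with PyMT-M Mcm3 led at 64.3 ahead of Mcm7 at 52.2 and Cdk4 at 51.4.

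**Figure D4:**
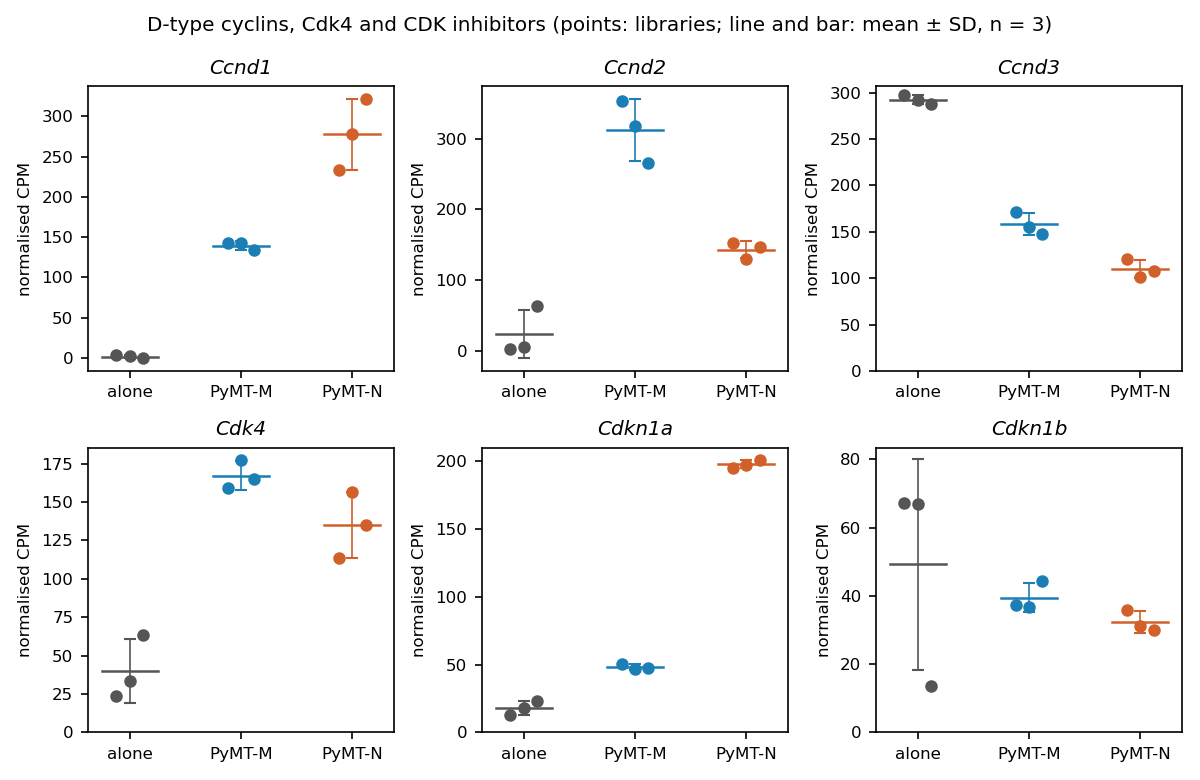
Normalised CPM of the D-type cyclin genes, Cdk4 and the CDK inhibitor genes in each library of the 3 groups; points are libraries, line and bar are mean ± SD (n = 3). Ccnd1 goes from under 4 alone to over 230 with PyMT-N, Ccnd3 goes from over 288 alone to under 121 with PyMT-N, and Cdkn1a is near 200 in all PyMT-N libraries and under 51 in all others.

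The E-type cyclins take over from the D-type cyclins at the start of S phase, and E2F1 is a factor that switches on their genes and those for DNA synthesis. Ccne1 was at 6.68, 5.60 and 62.6 normalised CPM alone, 79.1, 98.3 and 112 with PyMT-M and 53.4, 53.2 and 89.1 with PyMT-N. Alone replicate 3 lay within the range of the PyMT-N libraries, while the other alone libraries were under 7. Ccne1 rose by 1.70 ± 0.63 log2 units with PyMT-N and 2.25 ± 0.61 with PyMT-M (edgeR adjusted p = 0.0379 and 0.00813), and by 3.43 and 3.98 without alone replicate 3. The call with PyMT-N was lost without alone replicate 1 or 2, PyMT-M replicate 1 or PyMT-N replicate 3 (adjusted p = 0.116, 0.134, 0.0530 and 0.122). The difference between the co-cultures was -0.55 ± 0.49, which was not called (adjusted p = 0.422), though it was without alone replicate 3 (adjusted p = 0.0320). Ccne2, the second E-type cyclin, stayed at low counts, at 9.36, 2.24 and 0 normalised CPM alone, 5.16, 10.3 and 12 with PyMT-M and 3.44, 3.03 and 2.80 with PyMT-N. Neither difference from alone was called (-0.48 ± 0.75 with PyMT-N and 1.07 ± 0.61 with PyMT-M, edgeR adjusted p = 0.613 and 0.149). Without alone replicate 1 the difference with PyMT-M was 2.58 and called (adjusted p = 0.0196), and that with PyMT-N was 1.03. Ccne2 was lower with PyMT-N than with PyMT-M, with a log2 difference of -1.55 ± 0.55 (adjusted p = 0.0407). This call was lost without PyMT-M replicate 2 or 3 and without any single PyMT-N library (adjusted p = 0.0884 to 0.132). It was also lost with the replicate number as a block.

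E2f1 was at 9.36, 5.60 and 16.6 normalised CPM alone, 17.6, 22.3 and 19.4 with PyMT-M and 12.3, 24.2 and 23.7 with PyMT-N, so that alone replicate 3 lay above the lowest PyMT-N library. It rose by 1.09 ± 0.42 log2 units with PyMT-N and 1.06 ± 0.42 with PyMT-M (edgeR adjusted p = 0.0395 and 0.0409). Each call was lost without any of 4 libraries with PyMT-N (alone replicate 1 or 2, PyMT-N replicate 2 or 3, adjusted p = 0.0959 to 0.211) and of 5 with PyMT-M (alone replicate 1 or 2, any PyMT-M library, 0.0519 to 0.222). The call with PyMT-N was also lost with the replicate number as a block. The co-cultures had like means, 19.8 ± 2.37 with PyMT-M and 20.1 ± 6.71 with PyMT-N.

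Cdkn1a (ENSMUSG00000023067, GRCm38 chr17:29090976-29100727) encodes p21, which inhibits CDKs and is a target of p53. It was at 12.9, 17.9 and 23.4 normalised CPM alone, 50.3, 46.8 and 47.4 with PyMT-M and 195, 197 and 200.4 with PyMT-N. All 3 PyMT-N libraries were close to 200 and at least 3 times any other library. Its log2 fold change was 3.49 ± 0.24 with PyMT-N and 1.46 ± 0.25 with PyMT-M (edgeR adjusted p = 2.20e-08 and 0.000204), and 2.03 ± 0.20 between the co-cultures (adjusted p = 1.31e-06). Cdkn1b, which encodes p27, was at 67.3, 66.9 and 13.6 normalised CPM alone, 37.2, 36.8 and 44.5 with PyMT-M and 35.9, 31.1 and 29.9 with PyMT-N. Replicates 1 and 2 alone were above, and replicate 3 was below, every co-culture library. Its differences of -0.70 ± 0.36 with PyMT-N and -0.41 ± 0.35 with PyMT-M were not called (edgeR adjusted p = 0.121 and 0.343). Without alone replicate 3 they were -1.05 and -0.76 and called (adjusted p = 0.000335 and 0.00419), while pan-leukocyte scaling turned the PyMT-M difference to 1.06 (adjusted p = 0.0153).

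Among 17 other genes known as p53 targets, 8 were called higher and 3 lower with PyMT-N than alone, 4 and 4 with PyMT-M, and 9 were called higher and 2 lower with PyMT-N than with PyMT-M. Over all tested genes 29.4% were called higher and 23.6% lower with PyMT-N, 28.2% and 27.9% with PyMT-M, and 19.1% and 15.5% between the co-cultures, so the PyMT-M counts are near the background. The median log2 fold change of the list was 0.94, -0.46 and 0.72 in the 3 comparisons, where that of all tested genes was 0.12, -0.03 and -0.02. With pan-leukocyte scaling the counts were 12 and 1, 11 and 0, and 7 and 3, where 55.9% and 7.80%, 62.9% and 2.52%, and 11.9% and 29.1% of all tested genes were called higher and lower, and the PyMT-M median turned to 1.02. Perp, an adhesion gene of desmosomes as well as a p53 target, had 0 counts alone and was at least 521-fold higher with PyMT-N (against a floor of 3 counts over the alone group). Plk2 was at 26.4 ± 10.5 normalised CPM alone against 55 ± 3.87 with PyMT-M and 279 ± 37.4 with PyMT-N, a log2 difference of 2.34 ± 0.22 between the co-cultures (edgeR adjusted p = 1.06e-06). Ccng1, the cyclin G1 gene, was at 88.3 ± 5.10, 86.5 ± 12 and 421 ± 47.1 in the same order, a difference of 2.28 ± 0.18 (adjusted p = 1.56e-07). Zmat3 rose by 3.71 ± 0.36 with PyMT-N and 3.04 ± 0.37 with PyMT-M (adjusted p = 6.62e-07 and 9.76e-06). Phlda3 had 1 count alone, 140 with PyMT-M (a ratio of 64.1, 95% counting interval 11.3 to 2549) and 189 with PyMT-N (a ratio of 100.4, interval 17.8 to 3986). Trp53inp1 fell by 2.23 with PyMT-N and 1.87 with PyMT-M on the log2 scale (adjusted p = 4.47e-06 and 2.42e-05), the latter not called under pan-leukocyte scaling. Sesn1 was lower with PyMT-N than with PyMT-M, with a log2 difference of -1.48 ± 0.34 (adjusted p = 0.00289). Epithelial markers were highest in the same PyMT-N libraries, and their part in this list was not tested.

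The MCM helicase is a ring of 6 different subunits, made in similar amounts and loaded at origins before S phase. Its genes carry sites for E2F factors in many species, and the RefSeq promoter windows of GRCm38.p6 (250 bases before to 50 after the start) of Mcm5 and Mcm6 are shown for the 160 bases before the start, 5′ to 3′ on the strand of the gene, because they hold such motifs and because both subunits were called higher with PyMT-M than alone and lower with PyMT-N than with PyMT-M. Capitals mark E2F motifs on either strand and CCAAT boxes, which read as the reverse complement where they lie on the other strand. The E2F motif was searched as TTTCGCGC, as TTTGGCGC, as TTTCCCGC, as TTTGGCGG, as TTTCCCGG and as TTTCGCGG. In each gene a pair of E2F matches overlaps on opposite strands.
Mcm5, chr8:75109349-75109508, plus strand: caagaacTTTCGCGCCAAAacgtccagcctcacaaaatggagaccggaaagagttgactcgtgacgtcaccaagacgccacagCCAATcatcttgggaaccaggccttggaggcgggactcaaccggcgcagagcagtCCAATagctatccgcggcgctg
Mcm6, chr1:128359706-128359865, minus strand: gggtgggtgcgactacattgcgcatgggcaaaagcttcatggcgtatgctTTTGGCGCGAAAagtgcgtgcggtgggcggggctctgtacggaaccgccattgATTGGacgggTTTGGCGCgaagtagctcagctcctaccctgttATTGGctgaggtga
Mcm5 has E2F matches that start 153 and 149 bases before the start and CCAAT at 77 and 22. Mcm6 has E2F matches at 110, 106 and 47 and CCAAT at 57 and 14. Mcm3 and Mcm7 had the same calls with PyMT-M and between the co-cultures, and also have E2F matches in a full window. Rrm1 had these calls with no E2F match in its window. A link between motif and call was not tested. Windows were given for 31 of the 38 genes (34 windows, with more than 1 for some genes), and not for Ccnd1, Ccnd2, Ccna2, Ccne2, Mcm4, Aurkb and Tpx2. An E2F motif was in 4 of the 10 windows of the helicase, clamp and nucleotide genes, in 2 of 16 windows of the mitotic genes including Mki67 and Top2a (12.5%), and in 3.81% of all 32851 windows. These matches are descriptions of letters, and no binding was measured.

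Mcm5 (ENSMUSG00000005410) was at 12, 19.1 and 30.2 normalised CPM alone, 102, 64.1 and 69.2 with PyMT-M and 34.7, 28.4 and 25.8 with PyMT-N. All PyMT-M libraries were above all others, and the PyMT-N libraries overlapped the alone libraries. It rose by 2.02 ± 0.32 log2 units with PyMT-M (edgeR adjusted p = 0.0001), while the difference with PyMT-N was 0.61 ± 0.35 and not called (adjusted p = 0.152, and 0.91 with adjusted p = 0.0247 without alone replicate 3). Mcm6 was at 44.1, 44.8 and 18.1 alone, 150.1, 157 and 161 with PyMT-M and 78.1, 66.9 and 73.8 with PyMT-N, with no overlap between groups. It rose by 0.96 ± 0.26 with PyMT-N and 2.06 ± 0.26 with PyMT-M (adjusted p = 0.00612 and 1.14e-05). Mcm3 (ENSMUSG00000041859, GRCm38 chr1:20802968-20820312) was at 28.1, 35.1 and 70.1 alone, 223, 194 and 306 with PyMT-M and 63.4, 80.2 and 81.1 with PyMT-N. Alone replicate 3 lay among the PyMT-N libraries, and the PyMT-M libraries were more than 2 times any other. Mcm3 rose by 2.51 ± 0.30 with PyMT-M (adjusted p = 7.07e-06) and by 0.83 ± 0.30 with PyMT-N (adjusted p = 0.0305), the latter call being lost without alone replicate 1 or 2 or PyMT-N replicate 2 or 3 (adjusted p = 0.0754 to 0.143).

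Mcm2, whose product carries histones at the fork, was at 8.91, 4.11 and 23.4 alone, 57.2, 65.1 and 76.4 with PyMT-M and 42.2, 60.1 and 42.8 with PyMT-N. It rose by 2.22 ± 0.41 with PyMT-N and 2.67 ± 0.40 with PyMT-M (edgeR adjusted p = 0.000375 and 6.25e-05), and by 2.93 and 3.38 without alone replicate 3. Mcm4 was at 10.7, 12 and 13.6, 80.8, 85.5 and 120.1 and 46.2, 40.8 and 40.2 in the same order, and rose by 1.83 ± 0.30 and 3.00 ± 0.29 (adjusted p = 0.000133 and 1.20e-06). Mcm7 was at 67.3, 65 and 32.4, 255, 213 and 225 and 98.2, 179.6 and 95.8, and rose by 1.13 ± 0.29 and 2.03 ± 0.29 (adjusted p = 0.00404 and 3.60e-05). Its PyMT-N replicate 2 stood above the other PyMT-N libraries. Between the co-cultures 5 of the 6 subunit genes were called lower with PyMT-N, where 15.5% of all tested genes were. The log2 differences were -1.68 ± 0.26 for Mcm3, -1.41 ± 0.28 for Mcm5, -1.17 ± 0.22 for Mcm4, -1.10 ± 0.23 for Mcm6 and -0.89 ± 0.26 for Mcm7 (edgeR adjusted p = 0.000145, 0.000945, 0.000734, 0.00149 and 0.0145). The call of Mcm7 was lost without PyMT-M replicate 1 or PyMT-N replicate 1 or 3 (adjusted p = 0.0589, 0.0804 and 0.0923). Mcm2 differed by -0.45 ± 0.30, which was not called (adjusted p = 0.26). Per kb of exon the subunits were not at equal levels in any group: the highest was 7.11 times the lowest alone (Mcm7 at 12.4 and Mcm2 at 1.74 normalised CPM per kb), 6.75 times with PyMT-M (Mcm3 at 64.3 and Mcm2 at 9.52) and 4.05 times with PyMT-N (Mcm7 at 28.1 and Mcm2 at 6.95).

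**Figure D5:**
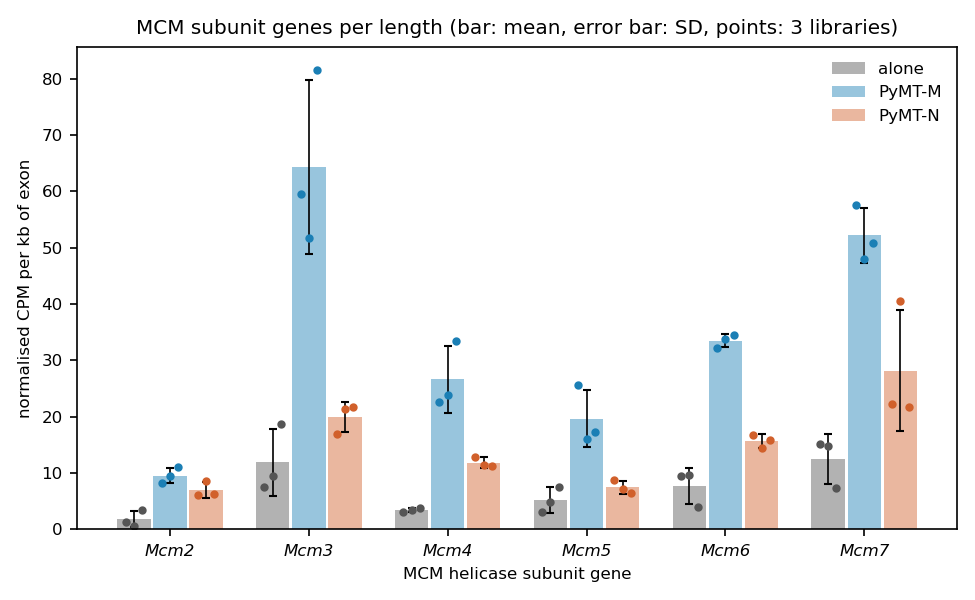
Normalised CPM per kb of exon of the 6 MCM helicase subunit genes; bars are means of 3 libraries, error bars are SD and points are libraries. Each gene is highest with PyMT-M, Mcm2 is the lowest subunit in every group, and Mcm3 reaches 64.3 with PyMT-M.

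Pcna encodes the sliding clamp of the DNA polymerases, Rrm1 and Rrm2 the large and small subunits of ribonucleotide reductase, and Tyms thymidylate synthase. Pcna was at 69.96, 62.8 and 36.2 normalised CPM alone, 95.9, 101 and 111 with PyMT-M and 93.3, 99.7 and 110.2 with PyMT-N. It rose by nearly the same amount, 0.81 ± 0.23 log2 units with PyMT-N and 0.82 ± 0.23 with PyMT-M (edgeR adjusted p = 0.00876 and 0.00718), and the co-cultures overlapped. Rrm2 was at 16.9, 15.3 and 9.81 alone, 105, 110.1 and 86.8 with PyMT-M and 68.9, 90.1 and 76.4 with PyMT-N. It rose by 2.43 ± 0.27 with PyMT-N and 2.79 ± 0.27 with PyMT-M (adjusted p = 3.24e-06 and 1.26e-06), and the difference of -0.36 ± 0.21 between the co-cultures was not called (adjusted p = 0.198). Rrm1 was at 24.1, 24.3 and 13.6 alone, 105, 132 and 169 with PyMT-M and 57.7, 53.4 and 50.8 with PyMT-N, without overlap. Its rise was 1.32 ± 0.28 and 2.65 ± 0.27 (adjusted p = 0.00113 and 2.12e-06), and it was lower with PyMT-N than with PyMT-M, with a log2 difference of -1.32 ± 0.23 (adjusted p = 0.000327). Whether Rrm1 and Rrm2 differ in this was not tested. Tyms was at 11.6, 5.98 and 6.03 alone, 15, 15.5 and 26.4 with PyMT-M and 10.3, 20.4 and 15.1 with PyMT-N. Its difference was 1.22 ± 0.43 with PyMT-M (adjusted p = 0.0264, lost without alone replicate 2 or PyMT-M replicate 3, adjusted p = 0.125 and 0.0933) and 0.93 ± 0.45 with PyMT-N, which was not called (adjusted p = 0.0943).

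Other replication genes were followed as a list of 48, from origin licensing to chromatin assembly, of which 47 were tested. With PyMT-N 16 were called higher and 2 lower than alone, the 16 being near the background of 29.4% of all tested genes. With PyMT-M 33 and 2 were called, where 28.2% and 27.9% of all tested genes were. Between the co-cultures 0 were called higher and 26 lower with PyMT-N, against 19.1% and 15.5% of all tested genes. The count of 26 ran from 16 to 32 on leaving out 1 library, where 10.5% to 20.8% of all tested genes were called lower. The medians were 0.83, 1.79 and -0.94 log2 units. Dbf4, the regulator of the Cdc7 kinase that fires origins, was at 14.3 ± 3.30 normalised CPM alone against 70.1 ± 10.1 with PyMT-M and 59.8 ± 18.5 with PyMT-N, and rose by 2.12 ± 0.32 with PyMT-N (edgeR adjusted p = 5.94e-05). Orc2, an origin recognition subunit, rose by 2.77 ± 0.49 with PyMT-N and 3.74 ± 0.44 with PyMT-M (adjusted p = 0.000207 and 6.62e-06). Uhrf1, which guides maintenance methylation, rose by 2.35 ± 0.46 and 3.53 ± 0.43 (adjusted p = 0.000523 and 9.69e-06). Lig1, the ligase of Okazaki fragments, rose by 3.41 ± 0.37 with PyMT-M (adjusted p = 3.13e-06) and was lower with PyMT-N than with PyMT-M, with a log2 difference of -1.38 ± 0.26 (adjusted p = 0.000628). Timeless, of the fork protection complex, differed between the co-cultures by -2.41 ± 0.37 and Cdt1, the licensing factor, by -1.25 ± 0.24 (adjusted p = 0.000119 and 0.000717). Dnmt1, the maintenance methyltransferase, went the other way: it was at 149 ± 24.4 alone against 72.1 ± 12.3 with PyMT-M and 47.3 ± 3.80 with PyMT-N. Its log2 fold change was -1.66 ± 0.22 with PyMT-N and -1.05 ± 0.21 with PyMT-M (adjusted p = 1.48e-05 and 0.000627), the latter turning to 0.40 and not called under pan-leukocyte scaling.

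CDK1 is the kinase that drives mitosis, cyclin A2 serves it in S and G2, and the B-type cyclins in mitosis. Genes of this group are known for a CHR motif close to the start, often with CCAAT boxes spaced upstream, and the 160 bases before the start are shown for Cdk1, Ccnb1 and Cdc20, which rose with both kinds of co-culture, and for Mki67, which did not pass the test in either. Capitals mark the CHR (TTTGAA and also TTTAAA, on either strand) and the CCAAT and E2F motifs as above.
Cdk1, chr10:69352913-69353072, minus strand: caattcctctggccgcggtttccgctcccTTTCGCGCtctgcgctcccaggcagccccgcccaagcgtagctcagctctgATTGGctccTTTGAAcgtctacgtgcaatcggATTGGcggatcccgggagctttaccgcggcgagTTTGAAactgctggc
Ccnb1, chr13:100786487-100786646, minus strand: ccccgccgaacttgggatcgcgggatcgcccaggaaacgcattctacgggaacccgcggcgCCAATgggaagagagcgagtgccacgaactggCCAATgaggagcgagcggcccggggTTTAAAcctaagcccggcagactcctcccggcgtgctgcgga
Cdc20, chr4:118437344-118437503, minus strand: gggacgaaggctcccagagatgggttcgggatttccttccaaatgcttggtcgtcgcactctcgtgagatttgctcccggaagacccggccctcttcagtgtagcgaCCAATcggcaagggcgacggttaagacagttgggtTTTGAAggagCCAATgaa
Mki67, chr7:135716380-135716539, minus strand: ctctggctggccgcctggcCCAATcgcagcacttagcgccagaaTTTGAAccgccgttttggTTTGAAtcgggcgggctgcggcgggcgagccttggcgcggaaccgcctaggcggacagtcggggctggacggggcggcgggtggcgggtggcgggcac
The CHR starts 71 and 15 bases before the start of Cdk1, 42 before that of Ccnb1, 18 before that of Cdc20, and 116 and 98 before that of Mki67. In the full windows, both a CHR and CCAAT were found in 14 of the 16 windows of mitotic genes including Mki67 and Top2a (87.5%), in 3 of the 10 helicase, clamp and nucleotide windows, in 1 of the other 8 (12.5%), and in 10.7% of all 32851 windows. The CHR alone was in 93.8% of the mitotic windows and 27.6% of all windows, and CCAAT in 93.8% and 37.4%. The printed stretch of Mki67 holds both kinds of motif, as do those of the other 3 genes.

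Cdk1 (ENSMUSG00000019942, GRCm38 chr10:69335146-69352938) was at 8.47, 10.8 and 0.754 normalised CPM alone, 132, 114 and 134 with PyMT-M and 117, 154 and 139 with PyMT-N. Every co-culture library was above 110 and every alone library under 11. It rose by 4.15 ± 0.34 log2 units with PyMT-N and 4.04 ± 0.34 with PyMT-M (edgeR adjusted p = 1.51e-07 and 4.28e-07), and the co-cultures overlapped, with a difference of 0.11 ± 0.23 (adjusted p = 0.758). Ccna2 (ENSMUSG00000027715, GRCm38 chr3:36564865-36572150) was at 7.57, 9.34 and 16.6 alone, 114, 115 and 106 with PyMT-M and 31.9, 28.6 and 41.5 with PyMT-N. The groups did not overlap, and the PyMT-N libraries lay between the others. It rose by 1.71 ± 0.33 with PyMT-N and 3.42 ± 0.30 with PyMT-M (adjusted p = 0.000441 and 5.71e-07), and was lower with PyMT-N than with PyMT-M, with a log2 difference of -1.70 ± 0.23 (adjusted p = 4.03e-05). Ccnb1 was at 17.4, 25 and 11.3 alone, 139.7, 111 and 174 with PyMT-M and 104, 105 and 108 with PyMT-N, and rose by 2.48 ± 0.28 and 2.90 ± 0.28 (adjusted p = 3.47e-06 with PyMT-N and 1.20e-06 with PyMT-M). Ccnb2 was at 27.2, 20.5 and 6.03 alone, 69, 63 and 71.6 with PyMT-M and 50.5, 71.6 and 82.6 with PyMT-N, and rose by 1.83 ± 0.34 and 1.81 ± 0.34 (adjusted p = 0.000345 and 0.00036). Between the co-cultures neither B-type cyclin was called, with differences of -0.42 ± 0.22 for Ccnb1 and 0.02 ± 0.27 for Ccnb2 (adjusted p = 0.16 and 0.97).

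Of the 13 spindle, checkpoint and cytokinesis genes, 12 were called higher than alone with PyMT-N and 12 with PyMT-M, with Plk1 the exception in each. Between the co-cultures 6 were called lower with PyMT-N than with PyMT-M. The shares of all tested genes in these 3 counts were 29.4%, 28.2% and 15.5%. The spindle assembly genes include Tpx2, which activates Aurora A on microtubules and was at 10.2, 24.3 and 29.4 normalised CPM alone, 206, 242 and 232 with PyMT-M and 109.9, 161 and 119 with PyMT-N. It rose by 2.66 ± 0.30 log2 units with PyMT-N and 3.46 ± 0.30 with PyMT-M (edgeR adjusted p = 3.15e-06 and 4.44e-07). Aurka, the Aurora A kinase gene, was at 7.57, 9.34 and 6.03, 63, 70.2 and 67.3 and 54.8, 55.9 and 55.7 in the same order, with the PyMT-N libraries almost equal. It rose by 2.80 ± 0.29 and 3.07 ± 0.29 (adjusted p = 1.54e-06 and 9.69e-07). Kif11, a motor that separates spindle poles, rose by 1.48 ± 0.29 and 1.97 ± 0.29, and Kif23, a motor of the midzone in cytokinesis, by 1.504 ± 0.34 and 1.47 ± 0.34 (adjusted p = 0.000621 and 4.67e-05, and 0.00172 and 0.00192). Their mean levels were 18.4 ± 5.09, 74.1 ± 4.07 and 52.5 ± 13.6 for Kif11, and 19.4 ± 5.97, 54.5 ± 6.51 and 56.2 ± 21 for Kif23, in the order alone, PyMT-M, PyMT-N. None of Aurka, Kif11 and Kif23 was called between the co-cultures (-0.27 ± 0.20, -0.49 ± 0.24 and 0.04 ± 0.28, adjusted p = 0.328, 0.125 and 0.932).

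The chromosomal passenger complex joins the Aurora B kinase to survivin, the product of Birc5, and borealin, the product of Cdca8. Aurkb was at 16.9, 12.3 and 10.6 normalised CPM alone, 63, 65.9 and 93.2 with PyMT-M and 42.5, 52.6 and 35.3 with PyMT-N. Birc5 was at 2.67, 5.23 and 3.02, 30.3, 29.2 and 51.1 and 21, 26.7 and 23.2, and Cdca8 at 8.91, 3.74 and 11.3, 58.3, 49.4 and 65.2 and 25.5, 38.3 and 35.7, in the same order. In all 3 genes the PyMT-N libraries lay between the alone and the PyMT-M libraries with no overlap. Their rises with PyMT-N were 1.67 ± 0.32, 2.62 ± 0.46 and 2.18 ± 0.38 log2 units in the order Aurkb, Birc5 and Cdca8 (edgeR adjusted p = 0.000475, 0.000214 and 0.000231), and with PyMT-M 2.44 ± 0.31, 3.24 ± 0.43 and 2.96 ± 0.36 (adjusted p = 1.34e-05, 2.10e-05 and 1.04e-05). Between the co-cultures Aurkb and Cdca8 were lower with PyMT-N, with log2 differences of -0.77 ± 0.24 and -0.79 ± 0.26 (adjusted p = 0.0231 and 0.0284). The Aurkb call was lost without PyMT-M replicate 3 or PyMT-N replicate 1 or 3 (adjusted p = 0.114, 0.0720 and 0.124), and the Cdca8 call without PyMT-M replicate 1 or 3 or PyMT-N replicate 1 or 3 (adjusted p = 0.0704 to 0.127). Birc5 differed by -0.62 ± 0.28, not called (adjusted p = 0.0983) except without alone replicate 3 (adjusted p = 0.0489).

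The spindle checkpoint kinase BUB1 and its relative BUBR1, the product of Bub1b, act at kinetochores to hold back CDC20, the activator of the anaphase promoting complex. Bub1 was at 4.01, 8.59 and 5.28 normalised CPM alone, 59.8, 66.8 and 55.4 with PyMT-M and 30.7, 33.9 and 32.1 with PyMT-N, and Bub1b at 16.5, 25.4 and 13.6, 85.3, 93.1 and 83.3 and 37.6, 36.4 and 49.5. Neither gene had overlapping groups. Bub1 rose by 2.37 ± 0.35 and Bub1b by 1.10 ± 0.29 log2 units with PyMT-N (edgeR adjusted p = 4.45e-05 and 0.00452), and by 3.29 ± 0.33 and 2.18 ± 0.27 with PyMT-M (adjusted p = 1.61e-06 and 1.21e-05). They were lower with PyMT-N than with PyMT-M, with a log2 difference of -0.91 ± 0.23 and -1.08 ± 0.23 (adjusted p = 0.00565 and 0.00177). Cdc20 was at 4.01, 4.11 and 0.754 alone, 27.5, 29 and 20.5 with PyMT-M and 15.2, 17.9 and 15.7 with PyMT-N, and rose by 2.27 ± 0.47 and 2.94 ± 0.43 (adjusted p = 0.000774 with PyMT-N and 4.77e-05 with PyMT-M). Its co-cultures did not overlap, but the difference of -0.67 ± 0.28 was not called (adjusted p = 0.078) except without alone replicate 3 (adjusted p = 0.0320). Tpx2, described above, was lower with PyMT-N, with a log2 difference of -0.80 ± 0.23 (adjusted p = 0.0148), a call lost without PyMT-M replicate 2 or PyMT-N replicate 1 or 3 (adjusted p = 0.0558, 0.0750 and 0.0769).

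Cenpe and Cenpf encode large proteins of the outer kinetochore. Cenpf was at 2.67, 2.24 and 6.79 normalised CPM alone, 45.1, 60.7 and 80.7 with PyMT-M and 30.1, 21.8 and 23.9 with PyMT-N, the largest log2 fold change of the spindle group with PyMT-M. It rose by 2.88 ± 0.48 log2 units with PyMT-N and 4.17 ± 0.44 with PyMT-M (edgeR adjusted p = 0.000142 and 2.23e-06), and was lower with PyMT-N than with PyMT-M, with a log2 difference of -1.30 ± 0.28 (adjusted p = 0.00179). Cenpe was at 8.47, 8.22 and 6.03, 52, 61.5 and 65 and 46.5, 50.7 and 41.1 in the same order, and rose by 2.55 ± 0.31 and 2.92 ± 0.30 (adjusted p = 7.45e-06 and 2.32e-06). The co-cultures differed in Cenpe by -0.37 ± 0.21, which was not called (adjusted p = 0.203). Plk1, a kinase of mitotic entry and the spindle poles, was at 4.90, 12.7 and 83.7 alone, 71.2, 79.8 and 63.6 with PyMT-M and 57.1, 57.8 and 52.7 with PyMT-N. Alone replicate 3 had the highest level of all 9 libraries, while the other alone libraries were the lowest. The differences of 0.98 ± 0.62 with PyMT-N and 1.34 ± 0.61 with PyMT-M were not called (adjusted p = 0.207 and 0.0805). Without alone replicate 3 they were 2.62 and 2.98 and called (adjusted p = 5.15e-07 and 6.78e-08).

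Mki67 (ENSMUSG00000031004, GRCm38 chr7:135689784-135716361) encodes Ki-67, the antigen most used to mark cycling cells, and Top2a the topoisomerase that untangles sister chromatids. Mki67 was at 90.01, 95.3 and 126 normalised CPM alone, 66.4, 57.3 and 109 with PyMT-M and 77.8, 53.4 and 82.2 with PyMT-N. The PyMT-N libraries were all below the alone libraries, and the PyMT-M libraries overlapped them. The differences of -0.52 ± 0.27 with PyMT-N and -0.42 ± 0.27 with PyMT-M were not called (edgeR adjusted p = 0.116 and 0.201), nor was -0.11 ± 0.26 between the co-cultures (adjusted p = 0.785). Without PyMT-M replicate 3 the PyMT-M difference was -0.71 and called (adjusted p = 0.0384), and under pan-leukocyte scaling it was 1.09 and called (adjusted p = 0.00358). Top2a was at 39.2, 45.6 and 33.9 alone, 222, 209.6 and 282 with PyMT-M and 115, 108 and 87.6 with PyMT-N, with no overlap between groups. It rose by 1.36 ± 0.22 with PyMT-N and 2.56 ± 0.22 with PyMT-M (adjusted p = 0.000129 and 5.09e-07), and was lower with PyMT-N than with PyMT-M, with a log2 difference of -1.20 ± 0.20 (adjusted p = 0.000186). Per kb of exon, Mki67 was at 10.3 normalised CPM per kb alone against 7.70 with PyMT-M and 7.07 with PyMT-N, and Top2a at 4.39, 26.4 and 11.5. Neutrophil precursor markers were lowest with PyMT-N, at 0.0804% ± 0.0115 of all counts (SD, n = 3). Alone and with PyMT-M their summed shares overlapped, at 0.478% ± 0.0779 and 0.442% ± 0.114. Their summed normalised CPM, given above, was higher alone, so that the difference in the sum depends on the scaling. Gene by gene, 12 of the 16 markers were called lower and 0 higher with PyMT-M, with a median log2 fold change of -2.15. Library totals moved the median of all tested genes by 0.50 in that comparison. The part of these markers in the level of either gene was not tested.

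A list of 55 further mitotic genes, all tested, gave 42 called higher and 0 lower with PyMT-N than alone, 49 and 0 with PyMT-M, and 1 higher and 21 lower with PyMT-N than with PyMT-M. The shares of all tested genes were 29.4% and 23.6%, 28.2% and 27.9%, and 19.1% and 15.5%. Its medians were 1.81, 2.63 and -0.70 log2 units. With library totals or pan-leukocyte scaling the last pair of counts was 1 and 33 or 1 and 39. The shares of all tested genes were then 15.3% and 22.5%, or 11.9% and 29.1%. Ube2c, the ubiquitin conjugating enzyme of the anaphase promoting complex, was at 32.4 ± 10.7 normalised CPM alone against 311 ± 29.7 with PyMT-M and 273 ± 86.2 with PyMT-N, and rose by 3.13 ± 0.28 and 3.32 ± 0.28 (edgeR adjusted p = 2.77e-07 with PyMT-N and 3.40e-07 with PyMT-M). Anln, the cytokinesis scaffold anillin, rose by 4.42 ± 0.40 with PyMT-N (adjusted p = 3.60e-07). Racgap1, of the central spindle, and Nek2, of the centrosome, rose by 3.43 ± 0.30 and 4.17 ± 0.39 with PyMT-M (adjusted p = 5.18e-07 and 9.19e-07). Racgap1, the kinetochore gene Ndc80 and the separase gene Espl1 were lower with PyMT-N than with PyMT-M, with a log2 difference of -1.33 ± 0.23, -1.60 ± 0.29 and -1.47 ± 0.27 (adjusted p = 0.000371, 0.000481 and 0.000597). Cdc25b, a phosphatase that activates CDK1, was the list's gene called higher with PyMT-N than with PyMT-M. It was at 44.7 ± 21.4 alone against 165 ± 38.2 with PyMT-M and 518 ± 29.3 with PyMT-N, a difference of 1.65 ± 0.24 between the co-cultures (adjusted p = 5.83e-05).

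Of 27 tested genes among 30 other G1 and checkpoint regulators, 7 were called higher and 7 lower with PyMT-N than alone, 15 and 6 with PyMT-M, and 0 higher and 13 lower with PyMT-N than with PyMT-M. Against the shares of all tested genes (29.4% and 23.6%, 28.2% and 27.9%, 19.1% and 15.5%), the PyMT-N counts are near the background. Under pan-leukocyte scaling the counts were 16 and 2, 24 and 0, and 0 and 17, where 55.9% and 7.80%, 62.9% and 2.52%, and 11.9% and 29.1% of all tested genes were called. Cdk6, the other partner of the D-type cyclins, was at 51.1 ± 17.1 normalised CPM alone against 229 ± 27.1 with PyMT-M and 179 ± 10.03 with PyMT-N, and rose by 1.76 ± 0.23 and 2.12 ± 0.23 (edgeR adjusted p = 1.38e-05 and 3.17e-06). Wee1, the kinase that restrains CDK1, rose by 2.37 ± 0.38 with PyMT-N (adjusted p = 0.000105). E2f5, a repressive E2F, had 2 counts alone, 229 with PyMT-M (a ratio of 52.4, 95% counting interval 14.3 to 435) and 158 with PyMT-N (42.0, interval 11.4 to 349). Skp2, which marks p27 for degradation, was at 1.71 ± 1.68 alone against 63.1 ± 6.08 with PyMT-M and 14.3 ± 4.30 with PyMT-N, a log2 difference of -2.15 ± 0.30 between the co-cultures (adjusted p = 3.20e-05). E2f2, an activating E2F, had its highest level in the neutrophils kept alone, at 739 ± 50.9 against 361 ± 43.4 with PyMT-M and 109 ± 23.4 with PyMT-N. It fell by 2.76 on the log2 scale with PyMT-N and was lower with PyMT-N than with PyMT-M, with a log2 difference of -1.73 ± 0.19 (adjusted p = 2.55e-08 and 4.50e-06). Tfdp1, the dimer partner of E2Fs, was lower with PyMT-N than with PyMT-M, with a log2 difference of -1.05 ± 0.20 (adjusted p = 0.0007). Rb1 was at 36.2 ± 6.37 alone and 8.82 ± 4.47 with PyMT-M, a difference of -2.02 ± 0.35 (adjusted p = 0.000193) that was -0.59 and not called under pan-leukocyte scaling.

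Of 10 genes linked to quiescence, 2 were called higher and 4 lower with PyMT-N than alone, and 0 and 8 with PyMT-M, while 4 were called higher and 0 lower with PyMT-N than with PyMT-M. All tested genes were called higher and lower in 29.4% and 23.6%, 28.2% and 27.9%, and 19.1% and 15.5% of cases, and with 10 genes the list is described by its counts only. Under pan-leukocyte scaling the counts were 5 and 3, 5 and 2, and 4 and 2, against 55.9% and 7.80%, 62.9% and 2.52%, and 11.9% and 29.1% of all tested genes. Ypel3 was at 617 ± 165 normalised CPM alone against 169 ± 34.2 with PyMT-M and 144 ± 22.9 with PyMT-N, Ccng2 at 288 ± 40.01, 105 ± 6.11 and 90.3 ± 7.62, and Mxd4, a MYC antagonist, at 29.6 ± 5.12, 5.69 ± 1.33 and 4.10 ± 1.08. Their log2 fold changes were -2.11 ± 0.23, -1.68 ± 0.18 and -2.88 ± 0.37 with PyMT-N (edgeR adjusted p = 2.13e-06, 2.24e-06 and 1.23e-05), and -1.87 ± 0.22, -1.46 ± 0.18 and -2.36 ± 0.34 with PyMT-M (adjusted p = 8.06e-06, 1.03e-05 and 3.99e-05). Under pan-leukocyte scaling Ypel3 and Ccng2 were no longer called with PyMT-M (-0.42 and 0.03). Klf4 rose by 1.56 ± 0.41 with PyMT-N (adjusted p = 0.00481). Foxo1, Btg1 and Klf2 were higher with PyMT-N than with PyMT-M, with a log2 difference of 5.17 ± 0.61, 0.99 ± 0.15 and 1.14 ± 0.23 (edgeR adjusted p = 6.27e-06, 0.000123 and 0.00115). Against alone, the list's log2 fold changes reached at most 1.56 with PyMT-N, and the lowest with PyMT-M was -3.86. The 5.17 of Foxo1 was therefore not a rise of that size over alone.

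The 38 genes varied most between the alone libraries. The median coefficient of variation over the genes was 41.8% alone against 12.0% with PyMT-M and 13.7% with PyMT-N. Their summed counts were also lowest alone, at 1575 to 2899 against 15748 to 19840 with PyMT-M and 8987 to 12988 with PyMT-N. The part of low counts in this spread was not tested. Alone, it ran from 1.56% for Ccnd3 to 139% for Ccnd2. Alone replicate 3 was the highest alone library for 15 of the 38 and the lowest for 19. It was more than 3 times the mean of the other alone libraries for 4 genes and under 0.333 of it for 6. With PyMT-M the most even gene was Mcm6 (3.50%) and the least even Ccne2 (38.9%), and with PyMT-N Aurka (1.07%) and Mcm7 (38.3%). In single libraries the counts of a gene ran from 0 to 781 alone against 24 to 1666 with PyMT-M and 11 to 1492 with PyMT-N, so that the fold changes of low genes such as Ccne2, Cdc20, Birc5 and Cenpf rest on few counts in the alone group.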

How the data were processed

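The authors deposited 1 table of raw counts per gene for 9 RNA-seq libraries. Per the submitters' processing notes, reads were aligned with STAR to the mouse genome GRCm38 (mm10). The labels' protocols give 150 pg of RNA per library and a single-cell RNA library kit from Qiagen. The counting tool, its annotation, its strand setting and its treatment of reads shared with pseudogenes, such as those of Pcna, Tyms, Ccnb1 and Ccnd3, were not found in those sources. Of 54532 identifiers, 54409 were paired with a symbol through GENCODE M21.

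Genes with at least 10 counts scaled to library size in enough libraries for 1 group, and 15 in all, were kept (12012). Counts were normalised with TMM and all 9 libraries were fitted by group with the quasi-likelihood test of edgeR 4.0.16 (R 4.3.3), which gave every adjusted p (Benjamini-Hochberg over all tested genes, called under 0.05). The procedure was tested on simulated counts in which a small set of genes changed by known folds. These counts held no broad shift of the transcriptome, so the choice of scaling was not tested by them. The members and the gene lists were chosen with earlier results of these data known. Of each list beyond the 38 genes, the text names, per comparison, the called genes with the smallest p, up to 3 in the commoner direction and 1 opposite. Alternatives were RLE, upper quartile, library total and pan-leukocyte scaling, other filters, DESeq2 1.42.0, limma 3.58.1 with voom, other thresholds, the compared groups alone, a replicate block, and leaving out each library. Promoter windows and their sequences are from RefSeq (GRCm38.p6). Protein sequences were not used here.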

Additional observations from a re-analysis of the deposited data

Results flagged for a closer look

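The effect of co-culture differed between PyMT-N and PyMT-M for 18 of the 38 genes, by the edgeR test of PyMT-N against PyMT-M co-culture. These were 2 higher and 16 lower with PyMT-N, where 19.1% and 15.5% of all tested genes were called. Because both effects are taken against the same alone libraries, the difference of the effects is the difference between the co-cultures. It was positive for Cdkn1a, at 2.03 log2 units, and for Ccnd1, at 0.99. Among the helicase subunit genes it was -1.68 for Mcm3, -1.41 for Mcm5, -1.17 for Mcm4, -1.10 for Mcm6 and -0.89 for Mcm7. For the cyclins it was -1.70 for Ccna2, -1.55 for Ccne2 and -0.53 for Ccnd3, and for the ribonucleotide reductase gene Rrm1 it was -1.32. Among the genes of kinetochores, checkpoint and spindle it was -1.30 for Cenpf, -1.08 for Bub1b, -0.91 for Bub1, -0.80 for Tpx2, -0.79 for Cdca8 and -0.77 for Aurkb, and for Top2a it was -1.20.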

How the results depend on the processing

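For single genes, the direction and side of the threshold held in 760 of the 797 alternative values with PyMT-N against alone (a total over 38 genes and 21 settings, less 1 gene dropped by the stricter filter), in 770 with PyMT-M against alone and in 724 between the co-cultures. Calls were lost in 26, 13 and 39 and gained in 11, 11 and 34, and 3 reversed: with pan-leukocyte scaling the PyMT-M difference was 0.59 for Ccnd3, 1.06 for Cdkn1b and 1.09 for Mki67, which follows from the shift of all genes under that scaling. The count of genes called lower with PyMT-M than alone was 0 with library totals, with pan-leukocyte scaling or when calls also needed a log2 change of 1 in size, and 2 with limma-voom. The count called lower with PyMT-N than alone was 0 with pan-leukocyte scaling and 2 with limma-voom. Between the co-cultures, 1 gene was called higher with pan-leukocyte scaling or with that size limit, and the count lower was 26 with pan-leukocyte scaling, 10 at an adjusted p under 0.01 and 10 with the size limit. The shares of all tested genes called lower were then 29.1%, 9.09% and 11.1%. Leaving out 1 library gave 28 to 33 higher and 1 to 2 lower with PyMT-N than alone, 31 to 34 and 1 to 2 with PyMT-M, and 2 higher and 10 to 20 lower between the co-cultures. By library totals the summed level was 913 CPM alone and 4624 with PyMT-M. DESeq2 called 29 higher and 1 lower, 32 and 1, and 2 and 15. With the replicate number as a block the counts were 30 and 1, 33 and 1, and 2 and 15. The shares of all tested genes were then 28.4% and 22.4%, 27.3% and 27.0%, and 18.5% and 14.5%. The block ended the calls of E2f1 with PyMT-N and of Ccne2 between the co-cultures. Libraries of the same number did not deviate together (r of -0.08 to 0.03 over 9 pairs, against -0.07 to 0.07 over 18 pairs of other numbers). With 3 libraries a group this check cannot show that they had no shared source, and the main fit did not read the numbers as pairs. Low counts in the alone group limit the fold changes of Ccnd1, Cdc20 and Cenpf.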
